A study of Mus musculus with 8 samples.

Results

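The nuclear genes for the subunits of the mitochondrial respiratory chain and ATP synthase were followed here in mouse skin. A gene counted as one of them if its row in the deposited count table was protein-coding and its name began with Nduf plus a subunit letter and number, Uqcr, Sdha to Sdhd, Cox4 to Cox8, or Atp5, with Cox7a1 and Cox8b left out. The rule reads names and biotypes and no expression value. It found 86 of the 56748 genes in the table, namely 39 of complex I, 4 of complex II, 8 of complex III, 17 of complex IV and 18 of ATP synthase (complex V).

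Skin of 3 NPY-tet and 5 WT male mice, all aged 35 weeks, was profiled by RNA sequencing of whole tissue, with 1 library per mouse. NPY-tet mice were homozygous for the tet allele of Npy (NPY tet/tet, strain B6;129S4-Npytm2Rpa/J), a germline allele of the gene for neuropeptide Y. WT mice were their NPY +/+ siblings. No treatment was given to either group, per the labels.

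Respiratory complexes I to IV pass electrons from NADH and succinate to oxygen. Complexes I, III and IV pump protons across the inner mitochondrial membrane, and ATP synthase uses the proton gradient to make ATP. Most subunits are made from nuclear genes and imported, while a small set is encoded by mitochondrial DNA, so both genomes contribute to complexes I, III, IV and V. Several subunits of complexes I and IV exist as isoforms that are restricted to muscle or testis or are induced by low oxygen. In skin, mitochondria-rich muscle fibres lie beneath a dermis and epidermis with fewer mitochondria.

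The promoters of these genes are known for binding sites of nuclear respiratory factor 1 (NRF1), of ETS factors such as GABP (nuclear respiratory factor 2) and of YY1. Promoters were matched by symbol for 67 of the 85 symbols, as windows of 300 bases from 250 before to 50 after the annotated start (RefSeq, GRCm38.p6). A motif was counted on either strand, and matches of different motifs could overlap. The 67 genes had 72 windows, and a gene counted if any of its windows matched. The shares over other promoters are per window. The NRF1-type motif, GCGCA and GCGC separated by any 1 base, lay in 25.37% of the matched subunit genes (17 of 67), against 4.6% of all RefSeq promoters of that length and 6.38% of the protein-coding ones. The ETS-type motif CCGGAAG lay in 17 of 67 as well, against 8.86% of all promoters and 11.6% of the protein-coding ones. The YY1-type motif AAGATGGC lay in 14.93% (10 of 67), against 2.75% of all promoters and 3.05% of the protein-coding ones. The GC box GGGCGG lay in 41.79%, the CCAAT box in 43.28% and the TATA box TATAAA in 10.45% of the subunit genes, against 35.7%, 37.4% and 13.6% of all promoters and 46.2%, 38.2% and 12.6% of the protein-coding ones. For the GC box the subunit genes thus lay above the share over all promoters and below that over protein-coding ones. A match is a run of letters and no evidence of binding.

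Promoters of 4 genes described below are shown, 2 with NRF1-type and ETS-type matches, 1 with a YY1-type match and 1 with none of these 3. Capitals mark the matches, read in the direction of the gene. Cox6a1 (minus strand, chr5:115348909-115349208) and Atp5h (minus strand, chr11:115419870-115420169) hold NRF1-type matches and an ETS-type match on the opposite strand. Ndufs7 (plus strand, chr10:80249199-80249498) holds a YY1-type match, and Uqcr10 (minus strand, chr11:4704295-4704594) holds none.
Cox6a1: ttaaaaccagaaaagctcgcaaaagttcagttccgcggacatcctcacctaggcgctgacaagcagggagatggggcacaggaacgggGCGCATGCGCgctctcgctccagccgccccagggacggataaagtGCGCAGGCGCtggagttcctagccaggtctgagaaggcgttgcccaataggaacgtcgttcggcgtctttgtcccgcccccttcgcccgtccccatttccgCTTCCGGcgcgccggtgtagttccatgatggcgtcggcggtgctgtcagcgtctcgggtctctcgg
Atp5h: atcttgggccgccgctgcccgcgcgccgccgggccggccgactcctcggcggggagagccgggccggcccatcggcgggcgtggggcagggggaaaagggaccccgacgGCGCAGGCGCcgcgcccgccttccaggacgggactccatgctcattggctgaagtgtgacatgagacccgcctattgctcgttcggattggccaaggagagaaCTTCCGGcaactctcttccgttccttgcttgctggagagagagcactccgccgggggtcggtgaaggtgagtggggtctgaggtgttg
Ndufs7: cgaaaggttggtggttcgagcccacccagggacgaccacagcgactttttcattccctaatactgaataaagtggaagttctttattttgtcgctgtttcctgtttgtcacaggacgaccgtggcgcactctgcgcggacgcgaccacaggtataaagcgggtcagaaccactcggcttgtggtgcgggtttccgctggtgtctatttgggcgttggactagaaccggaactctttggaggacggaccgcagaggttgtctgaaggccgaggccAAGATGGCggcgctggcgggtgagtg
Uqcr10: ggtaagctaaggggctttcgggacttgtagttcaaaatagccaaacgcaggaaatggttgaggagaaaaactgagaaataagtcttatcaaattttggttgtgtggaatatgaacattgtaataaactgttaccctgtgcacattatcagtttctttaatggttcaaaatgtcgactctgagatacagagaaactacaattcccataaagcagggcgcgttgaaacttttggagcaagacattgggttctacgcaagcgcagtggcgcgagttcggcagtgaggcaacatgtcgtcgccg

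Libraries held 31370433 to 47495565 counts. Npy itself had 11802, 11864 and 10394 counts in NPY-tet replicates 1 to 3, against 5 to 15 counts in the WT libraries, and was the 1 gene past an adjusted p of 0.05 among 18495 tested (log2 fold change 10.37, adjusted p = 3.60e-09, edgeR). Ribosomal RNA genes made up 6.44% to 8.07% of counts in NPY-tet replicate 1 and WT replicates 1, 2, 3 and 5, and 0.0388% to 0.0754% in NPY-tet replicates 2 and 3 and WT replicate 4. Skin markers were present, with 8 basal keratinocyte genes summing to 9284 to 12676 CPM (counts scaled to library size) in NPY-tet and 9148 to 14045 CPM in WT libraries. Skeletal muscle was sampled with the skin: 17 tested markers such as Acta1 and Ckm summed to 45313 to 65372 CPM in NPY-tet and 43316 to 104489 CPM in WT libraries, while Tnnc2, the remaining listed marker, had 0 to 14 counts. Of the brown or beige adipocyte markers, Ucp1 had 0 counts in all libraries except WT replicate 2, which had 6. The 7 other listed markers were tested. Highest among them were Cox8b (41.3 to 91.5 CPM over all libraries), Cox7a1 (17.4 to 54.5 CPM) and Cidea (21.8 to 41.7 CPM). Ucp1 alone therefore does not settle whether brown or beige fat was sampled.

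The subunit genes took up 1.01% to 1.21% of all counts in the NPY-tet libraries and 1.03% to 1.33% in the WT libraries. After a filter on low counts 82 of the 86 were tested. The 4 left out were Ndufb11b, named after the complex I gene Ndufb11, with 2 counts in NPY-tet replicate 1 and 0 elsewhere, and Cox7b2, Cox8c and a second Atp5o row (ENSMUSG00000116933), each with 0 counts in every library. Per length, the tested genes ranged over means of 1.12 to 379 FPKM (fragments per kilobase, scaled to library depth), with a median of 58.6 FPKM, against a median of 3.11 FPKM over all genes tested. The ATP synthase alpha subunit gene Atp5a1 was highest, at 341 ± 56.2 FPKM in NPY-tet and 402 ± 54.9 FPKM in WT skin (SD, n = 3 and 5). Highest in the other complexes were Cox6a2 in complex IV (336 FPKM over all libraries), Uqcr10 in complex III (154 FPKM), Ndufa4l2 in complex I (151 FPKM) and Sdha in complex II (97.6 FPKM).

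Fitted levels of the subunit genes were slightly lower in NPY-tet than in WT skin in all 5 complexes, and no gene passed the test. Of the 82 tested genes 78 had a log2 fold change below 0, against 49.3% of all genes tested, and the median was -0.21, against 0.0041 over all genes. By edgeR's quasi-likelihood test 0 of 82 passed an adjusted p of 0.05, against 0.00541% of all genes. The smallest adjusted p was 0.773, for Atp5mpl. Lower values at an unadjusted p below 0.05 were found for 5 genes, against 3.55% of all genes (lower) and 5.98% (either direction), and higher ones for 0, against 2.43%. They were Atp5mpl, Ndufb1, Ndufb7, Cox4i2 and Uqcr10. In 3 genes (Ndufb1, Uqcr10 and Atp5h) every NPY-tet library lay below every WT library, against 1.98% of all genes, and in 0 every NPY-tet library lay above, against 1.81%. DESeq2 also called 0 of these genes past an adjusted p of 0.05, against 0.369% of all genes, and had 6 at an unadjusted p under 0.05 (7.32%), against 7.47% of all genes in either direction. For limma-voom these counts were 0 and 9 (11%), against 12.4% of all genes at that unadjusted threshold. In edgeR, DESeq2 and limma-voom the share of subunit genes was near that of all genes.

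The medians by complex lay close to one another. They were -0.19 in complex I (37 of 38 below 0), -0.28 in complex II (4 of 4), -0.21 in complex III (8 of 8), -0.14 in complex IV (12 of 15) and -0.25 in complex V (17 of 17). Their size is near the spread between mice of a genotype, whose SD of the mean log2 CPM was 0.19 over all 82 genes and 0.15 to 0.22 by complex. The genes lie on 19 chromosomes, and 27 of them overlap another tested gene by their spans from start to end. Reads from a shared stretch carry no strand to tell the genes apart. Whether the exons overlap was not examined. In bulk tissue, fewer cells of a mitochondria-rich type and less RNA per cell cannot be told apart.

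**Figure D1:**
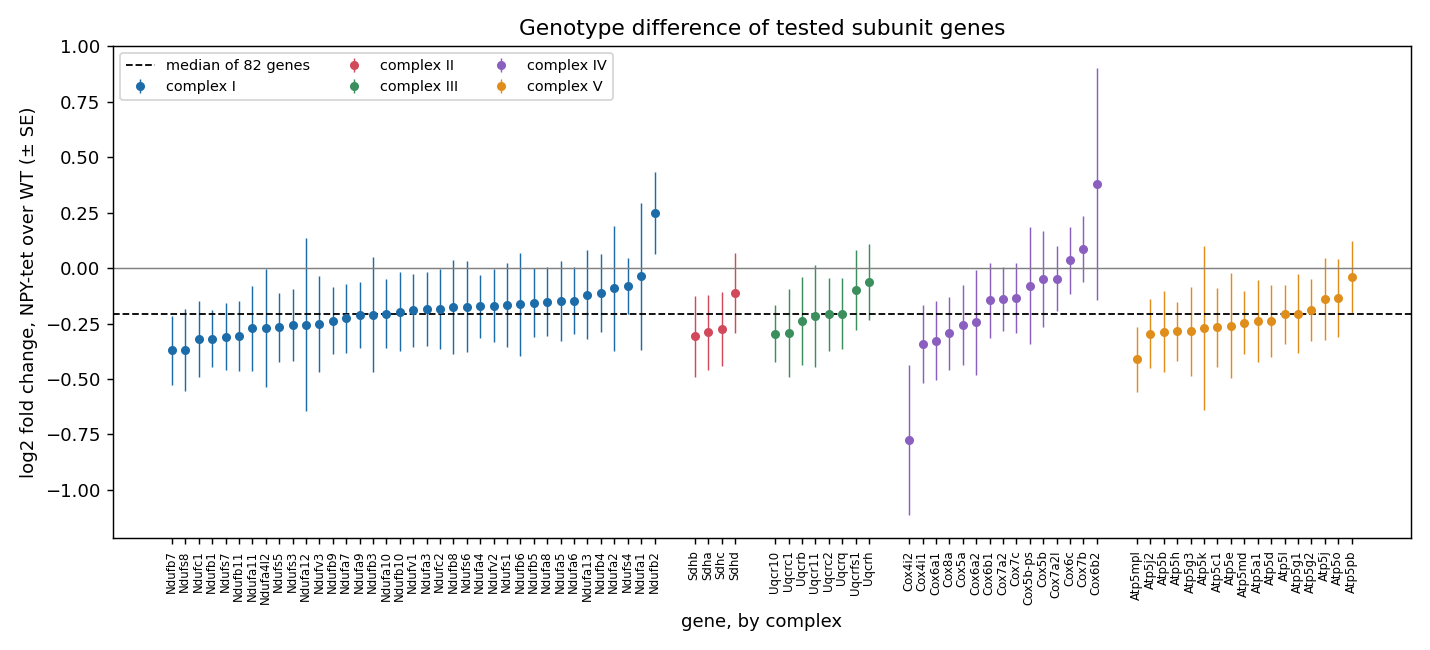
Log2 fold change of the tested subunit genes, NPY-tet over WT, with its standard error as a bar (vertical axis), grouped by complex and ordered by size (horizontal axis). Nearly all points lie below 0 around the median of -0.21 over 82 genes (dashed line), 1 of which is not drawn, with standard errors of 0.13 to 0.52.

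The level of the subunit genes differed between mice of the same genotype as much as between genotypes. For each gene, log2 CPM was set against that gene's mean over the 8 libraries. The median of this deviation was -0.31, -0.07 and 0.03 in NPY-tet replicates 1 to 3, against 0.06, 0.12, 0.39, 0.04 and -0.20 in WT replicates 1 to 5. NPY-tet replicate 1 was lowest and WT replicate 3 highest, and the groups overlapped because WT replicate 5 lay below NPY-tet replicates 2 and 3. NPY-tet replicates 1 to 3 had 4, 32 and 48 of the 82 genes above their own mean, against 59, 62, 80, 48 and 22 in WT replicates 1 to 5. WT replicate 3 was the highest library for 63 genes, NPY-tet replicate 1 the lowest for 39 and WT replicate 5 the lowest for 30. Without NPY-tet replicate 1 the median log2 fold change was -0.11 and 0 subunit genes had an unadjusted p under 0.05, against 3.3% of all genes in either direction. Without WT replicate 3 the median was -0.12, with 2 such subunit genes (2.44%), against 4.78% of all genes. Without WT replicate 5 it was -0.27, with 16 (19.5%), against 9.11% of all genes. Without NPY-tet replicate 3 it was -0.27, with 15 (18.3%), against 13.7% of all genes. Both shares thus depended on the libraries compared. Without NPY-tet replicate 2 the median was -0.22, with 2 (2.44%), against 3.76% of all genes. Without WT replicate 1 it was -0.22, with 1 (1.22%), against 5.47%, and without WT replicate 2 it was -0.20, with 3 (3.66%), against 5.57%.

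**Figure D2:**
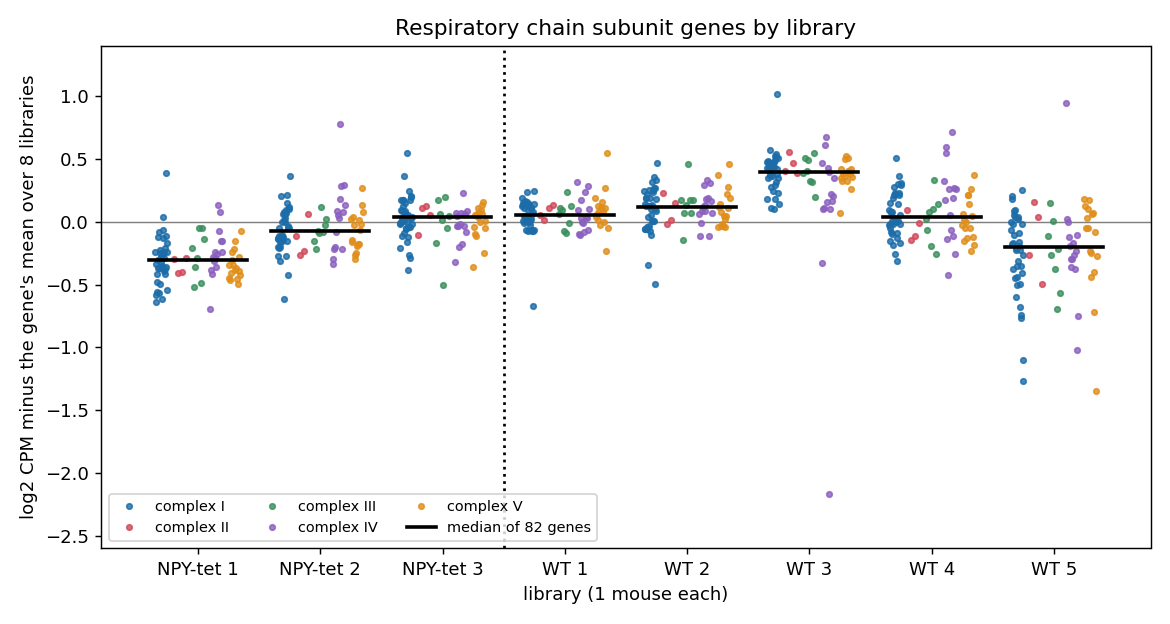
Deviation of log2 CPM from each gene's mean over 8 libraries (vertical axis), 1 point per subunit gene, by library (horizontal axis, NPY-tet left of the dotted line) and colored by complex. The black line is the median over 82 genes, which runs from -0.31 in NPY-tet replicate 1 to 0.39 in WT replicate 3.

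Values also differed between the library sets rich and poor in ribosomal RNA, a difference that was not itself tested. Among the libraries rich in ribosomal RNA, NPY-tet replicate 1 against WT replicates 1, 2, 3 and 5, the median was -0.40, with 78 of 82 genes below 0, against 49.0% of all genes, and 13 at an unadjusted p under 0.05 (15.9%), against 12.3% of all genes. Among the libraries poor in it, NPY-tet replicates 2 and 3 against WT replicate 4, the median was -0.09, with 53 of 82 below 0, against 47.7% of all genes, and 3 at an unadjusted p under 0.05 (3.66%), against 6.97% of all genes. Each of these subsets has an arm of 1 mouse, whose spread is taken to be that of the other arm. With the ribosomal RNA set as a term in the fit of all 8 libraries the median was -0.26. No subunit gene passed an adjusted p of 0.05 in that fit (edgeR, smallest adjusted p among subunit genes 0.269).

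Complex I takes electrons from NADH. Its 7 nuclear-encoded core subunits, which hold the flavin and the iron-sulfur clusters, had a median log2 fold change of -0.19 and were all below 0. The other 31 tested genes with complex I names, Ndufa4 and Ndufa4l2 among them, had a median of -0.18. Ndufs7, whose iron-sulfur cluster hands electrons to ubiquinone, had 104, 115 and 130.2 CPM in NPY-tet replicates 1 to 3, against 133, 127, 184, 127 and 149.7 CPM in WT replicates 1 to 5. NPY-tet replicate 3 lay within the WT range, so the groups overlapped. Its log2 fold change was -0.31 (SE 0.15, adjusted p = 0.795). Ndufb1, an accessory subunit of the membrane arm, had 15.1, 16.3 and 15.4 CPM in NPY-tet replicates 1 to 3, against 20.4, 21.2, 20.2, 17.6 and 17.8 CPM in WT replicates 1 to 5. All 3 NPY-tet libraries lay below the lowest WT library (log2 fold change -0.32, SE 0.13, adjusted p = 0.795). Its locus (chromosome 12, 101934349 to 101943327, minus strand, mm39) overlaps Cpsf2 on the opposite strand, with 26.1 CPM on average, and the libraries carry no strand. Ndufb7, an accessory subunit on the intermembrane-space side, had 45.1, 61.8 and 67.0 CPM in NPY-tet replicates 1 to 3, against 73.6, 74.4, 90.6, 72.0 and 64.4 CPM in WT replicates 1 to 5. WT replicate 5 lay below NPY-tet replicate 3, and the log2 fold change was -0.37 (SE 0.16, adjusted p = 0.795), or -0.21 without NPY-tet replicate 1. Ndufa12, an accessory subunit, varied widely within both groups, at 50.2, 28.5 and 31.3 CPM in NPY-tet replicates 1 to 3 and 24.1, 27.2, 77.6, 44.5 and 45.6 CPM in WT replicates 1 to 5. A copy annotated as its pseudogene, Ndufa12-ps, carried 310 to 777 counts per library, and the split of reads between the copies is uncertain. Ndufb2, another membrane-arm subunit, was the 1 complex I gene with a fold change above 0 (0.25, SE 0.19, adjusted p = 0.813), at 13.9 ± 2.14 CPM in NPY-tet and 11.7 ± 2.24 CPM in WT skin. Its locus overlaps Braf on the opposite strand, which had more, 18.8 CPM on average.

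Ndufa4l2 and Ndufa4 carry complex I names, and the product of Ndufa4 has since been assigned to complex IV. Ndufa4l2, a paralog induced by low oxygen, had 105, 105 and 235 CPM in NPY-tet replicates 1 to 3, against 177, 149.7, 172, 229 and 165 CPM in WT replicates 1 to 5. Values of 2 NPY-tet mice lay below and that of the other above every WT mouse, and the log2 fold change was -0.27 (SE 0.27, adjusted p = 0.849), or -0.77 without NPY-tet replicate 3, -0.07 without either NPY-tet replicate 1 or 2, and -0.16 without WT replicate 4. Its locus overlaps Shmt2 on the opposite strand. Per length, the ratio of Ndufa4l2 to Ndufa4 was 1.23, 1.05 and 2.501 in NPY-tet replicates 1 to 3, against 1.74, 1.26, 1.43, 2.33 and 1.94 in WT replicates 1 to 5.

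Complex II, succinate dehydrogenase, is encoded by nuclear genes alone. Its flavoprotein gene Sdha had 328, 372 and 374 CPM in NPY-tet replicates 1 to 3, against 417, 473, 532, 429.6 and 335 CPM in WT replicates 1 to 5. WT replicate 5 lay below NPY-tet replicates 2 and 3, and the other 4 WT mice lay above all NPY-tet mice (log2 fold change -0.29, SE 0.17, adjusted p = 0.797). The iron-sulfur subunit gene Sdhb averaged 148 ± 28.4 CPM in NPY-tet and 183 ± 37.0 CPM in WT skin, and the membrane anchor gene Sdhc 136 ± 26.1 CPM in NPY-tet and 165 ± 26.7 CPM in WT skin. Sdhd, the other anchor, averaged 88.4 ± 11.7 CPM in NPY-tet and 95.6 ± 20.1 CPM in WT skin. In all 4 genes the groups overlapped. In the libraries poor in ribosomal RNA the complex II median was 0.05, and in those rich in it -0.48.

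Complex III passes electrons from ubiquinol to cytochrome c. Uqcr10, a small transmembrane subunit, had 78.0, 80.98 and 80.4 CPM in NPY-tet replicates 1 to 3, against 94.5, 102, 118, 91.9 and 83.3 CPM in WT replicates 1 to 5. The 3 NPY-tet mice differed little and lay below every WT mouse, with WT replicate 5 nearest (log2 fold change -0.30, SE 0.13, adjusted p = 0.795). The gene lies on the minus strand of chromosome 11 at 4651973 to 4654342 (mm39), and its promoter, shown above, held none of the NRF1-, ETS- or YY1-type motifs. The core subunit gene Uqcrc1 averaged 319 ± 77.5 CPM in NPY-tet and 390.1 ± 71.8 CPM in WT skin, and Uqcrq, which lies near the ubiquinone site, 132 ± 19.4 CPM in NPY-tet and 153 ± 25.1 CPM in WT skin. Uqcrfs1, the Rieske iron-sulfur protein, averaged 169 ± 1.81 CPM in NPY-tet and 181 ± 43.8 CPM in WT skin, with WT replicate 3 at 254 CPM. Groups overlapped in these 3 genes.

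Complex IV reduces oxygen, and its nuclear subunits include tissue isoforms. Of its 15 tested genes 12 had a fold change below 0. They include Cox5b-ps, which has a pseudogene name and counted because its row is labelled protein-coding. Cox4i1, the widely expressed form of the largest nuclear subunit, had 289, 298 and 394 CPM in NPY-tet replicates 1 to 3, against 401, 347, 519.9, 424 and 382 CPM in WT replicates 1 to 5. NPY-tet replicate 3 lay within the WT range, and the log2 fold change was -0.34 (SE 0.18, adjusted p = 0.796). Its counterpart Cox4i2, typical of lung and induced by low oxygen, stood at 1.06, 1.41 and 1.38 CPM in NPY-tet replicates 1 to 3, against 2.19, 1.82, 1.37, 2.20 and 3.41 CPM in WT replicates 1 to 5. Only WT replicate 3 lay within the NPY-tet range. The log2 fold change of -0.78 (SE 0.34, adjusted p = 0.795) was the furthest from 0 among the 82 genes, at a level under 1% of that of Cox4i1 per length in the NPY-tet libraries (ratio 0.00692 to 0.00930) and 0.00520 to 0.0176 in the WT libraries.

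Cox6a2, the form of heart and skeletal muscle, was the most abundant complex IV gene per length in this skin. It had 189.8, 238 and 195 CPM in NPY-tet replicates 1 to 3, against 253, 274, 357, 167 and 175 CPM in WT replicates 1 to 5, so the NPY-tet mice lay inside the WT range (log2 fold change -0.24, SE 0.24, adjusted p = 0.847, or -0.07 without WT replicate 3). Cox6a1, the widely expressed form, had 118, 135 and 162 CPM in NPY-tet replicates 1 to 3, against 147, 156, 169, 239 and 157 CPM in WT replicates 1 to 5. WT replicate 4 was far above the rest, and without it the log2 fold change was -0.18 instead of -0.33 (SE 0.18, adjusted p = 0.796). Without NPY-tet replicate 1 it was -0.22. The FPKM ratio of Cox6a2 to Cox6a1 was 1.66, 1.81 and 1.24 in NPY-tet replicates 1 to 3, against 1.77, 1.81, 2.18, 0.724 and 1.15 in WT replicates 1 to 5. It was lowest in WT replicate 4, where the skeletal muscle markers summed to 43316 CPM, and highest in WT replicate 3, where they summed to 104489 CPM. It was not low in NPY-tet replicate 1, where these markers summed to 45313 CPM and had their lowest median deviation (-0.90, against -0.45 in WT replicate 4). The same libraries marked both ends for Cox8b over Cox8a (0.431 and 1.10 in WT replicates 4 and 3), a muscle and brown fat form that the naming rule leaves out. For Cox7a1 over Cox7a2 the ratio was highest in WT replicate 3 (1.11) and lowest in NPY-tet replicate 1 (0.482).

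Groups overlapped in each of the 6 remaining complex IV genes with isoforms or counterparts. Cox6b2, a testis form, stood at 1.48 ± 0.389 CPM in NPY-tet and 1.13 ± 0.615 CPM in WT skin, with WT replicate 3 at 0.201 CPM and the others between 0.903 and 1.92 CPM (log2 fold change 0.38, SE 0.52, or 0.12 without WT replicate 3, 0.14 without NPY-tet replicate 2 and 0.63 without WT replicate 4). Its counterpart Cox6b1 averaged 120.1 ± 18.9 CPM in NPY-tet and 133 ± 24.4 CPM in WT skin. Cox7a2l, which joins complexes III and IV into supercomplexes, averaged 177 ± 19.4 CPM in NPY-tet and 184 ± 24.4 CPM in WT skin, and Cox7a2 averaged 73.7 ± 8.83 CPM in NPY-tet and 81.2 ± 11.4 CPM in WT skin. Cox7b averaged 62.3 ± 8.73 CPM in NPY-tet and 58.7 ± 8.58 CPM in WT skin, and Cox8a 118 ± 10.4 CPM in NPY-tet and 144 ± 29.3 CPM in WT skin. The log2 fold change of Cox8a was -0.29 (SE 0.16, adjusted p = 0.796), or -0.16 without WT replicate 4. The fold change of Cox7b turned negative without NPY-tet replicate 2 (-0.03) and ran to 0.16 without NPY-tet replicate 1. Cox7b and Cox6c (0.09 and 0.03) were, with Cox6b2 and Ndufb2, the 4 genes with a log2 fold change above 0.

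Complex V held the lowest fitted fold change of any subunit gene with at least 10 CPM in both groups. Atp5mpl, a small membrane subunit of ATP synthase, had 30.1, 41.6 and 31.9 CPM in NPY-tet replicates 1 to 3, against 46.7, 53.1, 43.0, 40.4 and 46.5 CPM in WT replicates 1 to 5. NPY-tet replicates 1 and 3 lay below all WT mice, and NPY-tet replicate 2 lay just above the lowest WT mouse. The log2 fold change was -0.41 (SE 0.15, adjusted p = 0.773). Atp5h, subunit d of the peripheral stalk, had 107, 123 and 131.8 CPM in NPY-tet replicates 1 to 3, against 139, 132.3, 173, 142 and 149 CPM in WT replicates 1 to 5. The groups did not overlap, by a margin of under 1 CPM between NPY-tet replicate 3 and WT replicate 2 (log2 fold change -0.29, SE 0.13, adjusted p = 0.795). Atp5j2, subunit f, averaged 119 ± 21.1 CPM in NPY-tet and 147 ± 19.5 CPM in WT skin, with overlap between the groups. The catalytic F1 part, Atp5a1, Atp5b, Atp5c1, Atp5d and Atp5e, had a median log2 fold change of -0.26, the 3 genes for the c-ring -0.21, the peripheral stalk -0.14 and the 5 membrane accessory subunits -0.27. Atp5a1 had 921, 1050.2 and 1271 CPM in NPY-tet replicates 1 to 3, against 1254, 1158, 1576, 1149 and 1238 CPM in WT replicates 1 to 5. NPY-tet replicate 3 lay above 4 of the 5 WT mice (log2 fold change -0.24, SE 0.19, adjusted p = 0.820). That fold change was -0.13 without NPY-tet replicate 1, -0.15 without WT replicate 3 and -0.37 without NPY-tet replicate 3. Atpif1, which inhibits ATP synthase and falls outside the naming rule, averaged 31.1 ± 3.05 CPM in NPY-tet and 30.2 ± 4.52 CPM in WT skin.

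**Figure D3:**
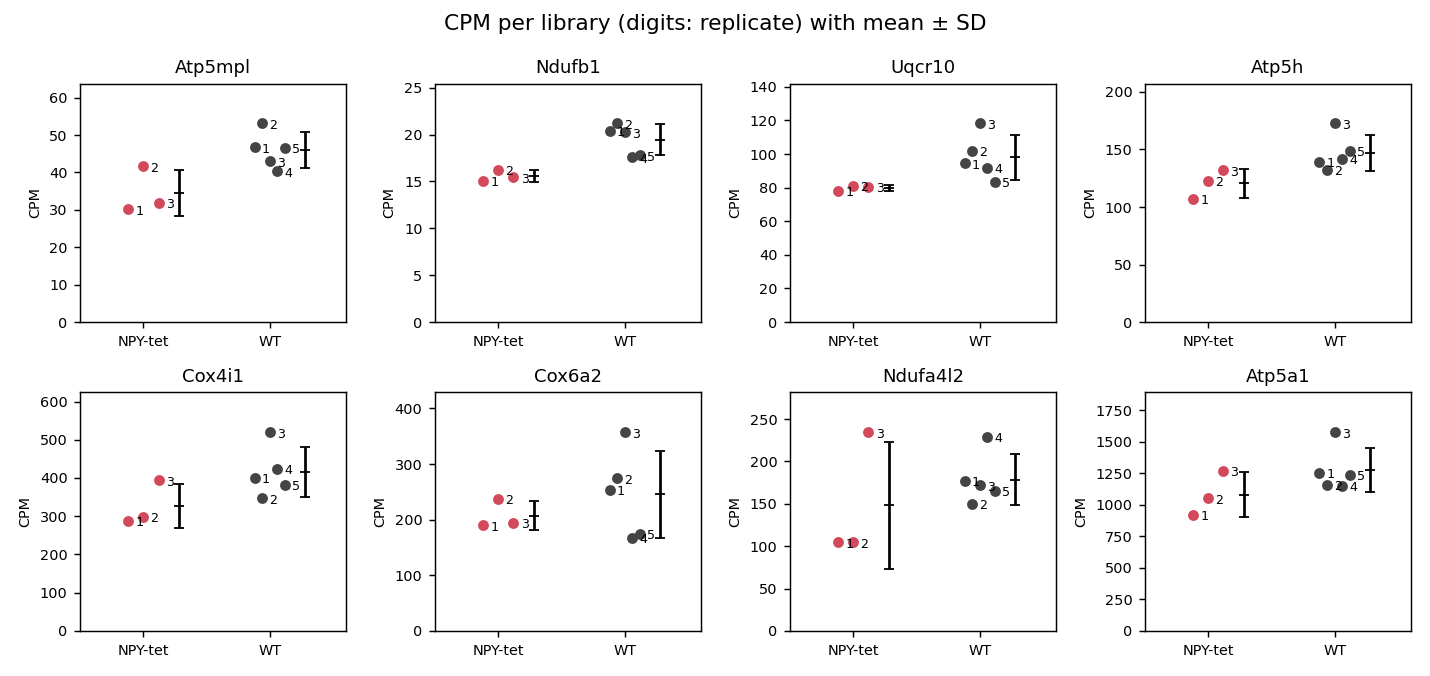
CPM per library (vertical axes from 0) of 8 subunit genes in NPY-tet (red) and WT (grey) skin, with replicate numbers beside the points and mean ± SD as bars (n = 3 and 5). NPY-tet points lie below all WT points in Ndufb1, Uqcr10 and Atp5h and overlap with them in the other 5 genes.

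Several short subunit genes were low in 1 WT mouse. In WT replicate 5, Atp5k, subunit e of ATP synthase, stood at 9.16 CPM, against 28.1 to 34.2 CPM in the other WT mice. Ndufa1, a small membrane subunit of complex I, stood at 10.9 CPM against 29.2 to 36.5 CPM, and Ndufa2 at 27.99 CPM against 66.1 to 76.5 CPM. With Cox5b-ps, Ndufb3 and Atp5e these were the 6 genes at or below -1 on the log2 scale relative to the mean of the other WT mice. Their median length in the table was 594 bases, against 1631 bases for the other tested subunit genes. Cox5b-ps (390 bases) has a pseudogene name, although its row is labelled protein-coding. In WT replicate 5 the median deviation was -0.53 for subunit genes of up to 800 bases and -0.07 for those over 3000 bases. Other protein-coding genes with at least 10 CPM showed the same order in that library, at -0.20 up to 800 bases and 0.02 over 3000 bases. NPY-tet replicate 1 was low in every length class of the subunit genes (-0.36, -0.29, -0.33 and -0.30), and WT replicate 3 was high in every class (0.33 to 0.42). The genotype medians were -0.21, -0.18, -0.22 and -0.21 from the shortest to the longest class of subunit genes, against -0.04, -0.12, -0.09 and 0.0059 in other protein-coding genes.

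**Figure D4:**
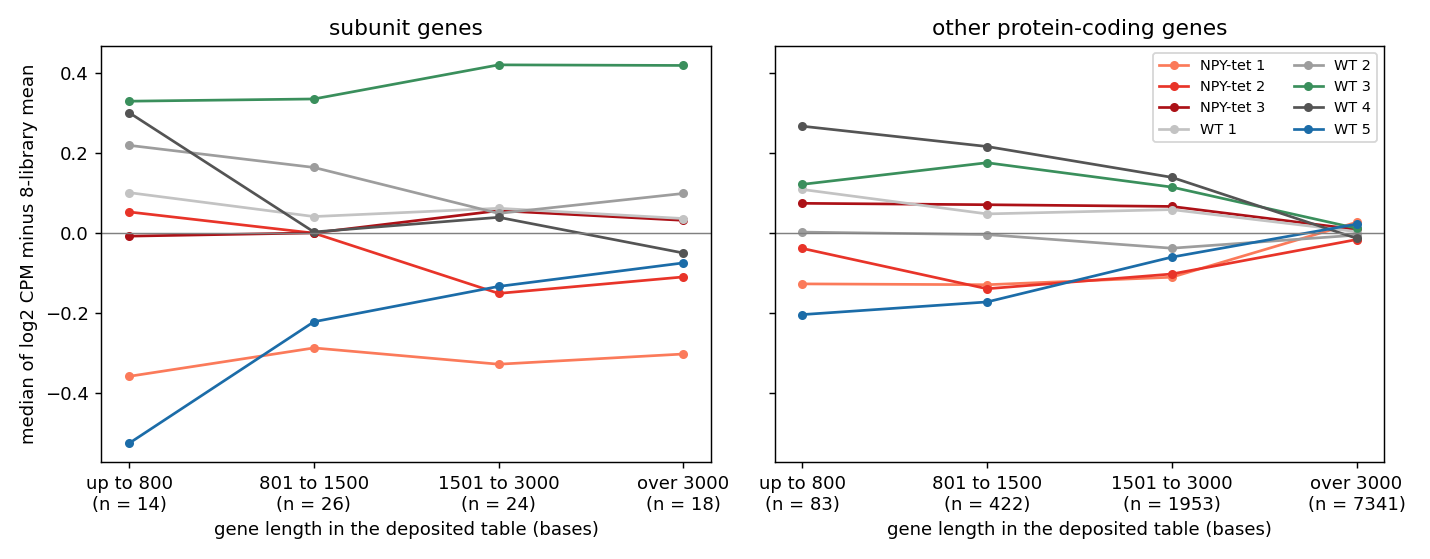
Median deviation of log2 CPM from the 8-library mean (vertical axis) by length class of the gene in bases (horizontal axis), 1 line per library, for subunit genes (left) and other protein-coding genes with at least 10 CPM (right). WT replicate 5 is lowest in the shortest class of both panels, while NPY-tet replicate 1 and WT replicate 3 keep their levels over all 4 classes of subunit genes.

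Other mitochondrial genes were set beside the subunits, by their medians and counts alone. The 13 subunits encoded by mitochondrial DNA had a median log2 fold change of -0.07 (8 below and 5 above 0). Their share of all counts was 2.28% ± 0.591 in NPY-tet and 2.15% ± 0.457 in WT skin (SD, n = 3 and 5), a difference of 0.134 percentage points (two-sided exact permutation p = 0.768, smallest possible 0.0179), which turned negative without NPY-tet replicate 2 (-0.204) or WT replicate 4 (-0.00453). Poly-A selection recovers mitochondrial transcripts unevenly, so the share refers to the deposited counts alone. By library their deviation was -0.15, 0.23 and -0.24 in NPY-tet replicates 1 to 3, against -0.32, -0.0075, 0.52, -0.60 and 0.32 in WT replicates 1 to 5. WT replicate 3 was high for both genomes, whereas WT replicate 5 was high for the mitochondrial genes and low for the nuclear ones.

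Subunit and electron carrier genes outside the naming rule (Ndufab1, Cyc1, Cycs, Cox7a1 and Cox8b) had a median of -0.30, with 5 of 5 below 0. Assembly factors had a median of -0.055 (32 of 47 below 0), mitochondrial ribosomal proteins -0.15 (66 of 77) and cytosolic ribosomal proteins -0.0076 (44 of 81). Enzymes of the citrate cycle and pyruvate dehydrogenase had a median of -0.18 (14 of 16), inner and outer membrane carriers -0.18 (11 of 13) and glycolysis -0.29 (16 of 17). Regulators of mitochondrial biogenesis such as Ppargc1a, Nrf1 and Gabpa had a median of 0.08, with 5 of 12 below 0. In these lists 0 genes passed an adjusted p of 0.05. At an unadjusted p under 0.05 (edgeR) there was 1, against 5.98% of all genes in either direction. It was the outer membrane channel Vdac3, at 124 ± 10.5 CPM in NPY-tet and 162 ± 31.3 CPM in WT skin. Subunit genes with the NRF1-type motif had a median log2 fold change of -0.27 and those without it -0.21. For the ETS-type motif the medians were -0.26 and -0.19, and for the YY1-type motif -0.18 and -0.21.

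Markers of muscle and fat also differed between libraries. The 17 skeletal muscle markers had a median log2 fold change of -0.42, with 15 below 0, against 49.3% of all genes. At an unadjusted p under 0.05 (edgeR) there were 0, against 5.98% of all genes in either direction. Myh7, of slow fibres, was at 0 in NPY-tet replicate 1, and no other of the 17 was at 0 in any library. Their deviation was -0.90, -0.16 and 0.04 in NPY-tet replicates 1 to 3, against 0.32, 0.19, 0.79, -0.45 and 0.10 in WT replicates 1 to 5. NPY-tet replicate 1 was lowest and WT replicate 3 highest, as for the subunit genes. The 10 white adipocyte markers had a median of -0.55, with 10 below 0, against 49.3% of all genes. At an unadjusted p under 0.05 (edgeR) 3 were lower, against 3.55% of all genes (lower) and 5.98% (either direction). The 10 markers summed to 3460 to 7848 CPM in NPY-tet and 5704 to 9366 CPM in WT libraries, and none was at 0 in any library. Their deviation was -0.78, -0.91 and 0.32 in NPY-tet replicates 1 to 3, against -0.01, 0.29, 0.49, 0.54 and -0.15 in WT replicates 1 to 5. For a fit with a marker term, the score was the mean log2 CPM of the markers, a measure other than the deviations above. By that muscle score NPY-tet replicate 2 (9.92) was second only to WT replicate 3 (10.34). Myh7 stood at 7.13 CPM in NPY-tet replicate 2 and at 0 to 0.57 CPM in the other libraries. With the muscle marker score as a term in the fit the median of the subunit genes was -0.10 (68 of 82 below 0), and with the adipocyte score it was -0.06 (52 of 82). The part of either tissue in the subunit values was not tested. Basal keratinocyte, fibroblast and smooth muscle markers had medians of 0.16, -0.03 and 0.03. Fibroblast markers were nevertheless low in NPY-tet replicate 1, with a deviation of -1.01 there and of 0.39 and 0.18 in NPY-tet replicates 2 and 3, against 0.34, -0.12, -0.11, -0.05 and 0.48 in WT replicates 1 to 5. They summed to 2550 CPM in NPY-tet replicate 1 and to 10327 to 25285 CPM in the other 7 libraries. None was at 0 in any library. The collagen gene Col1a1 stood at 423 CPM in NPY-tet replicate 1 and at 3269 to 10022 CPM in the others. That library was also lowest in the median of the subunit genes, and the part of this difference in the subunit values was not tested.

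**Figure D5:**
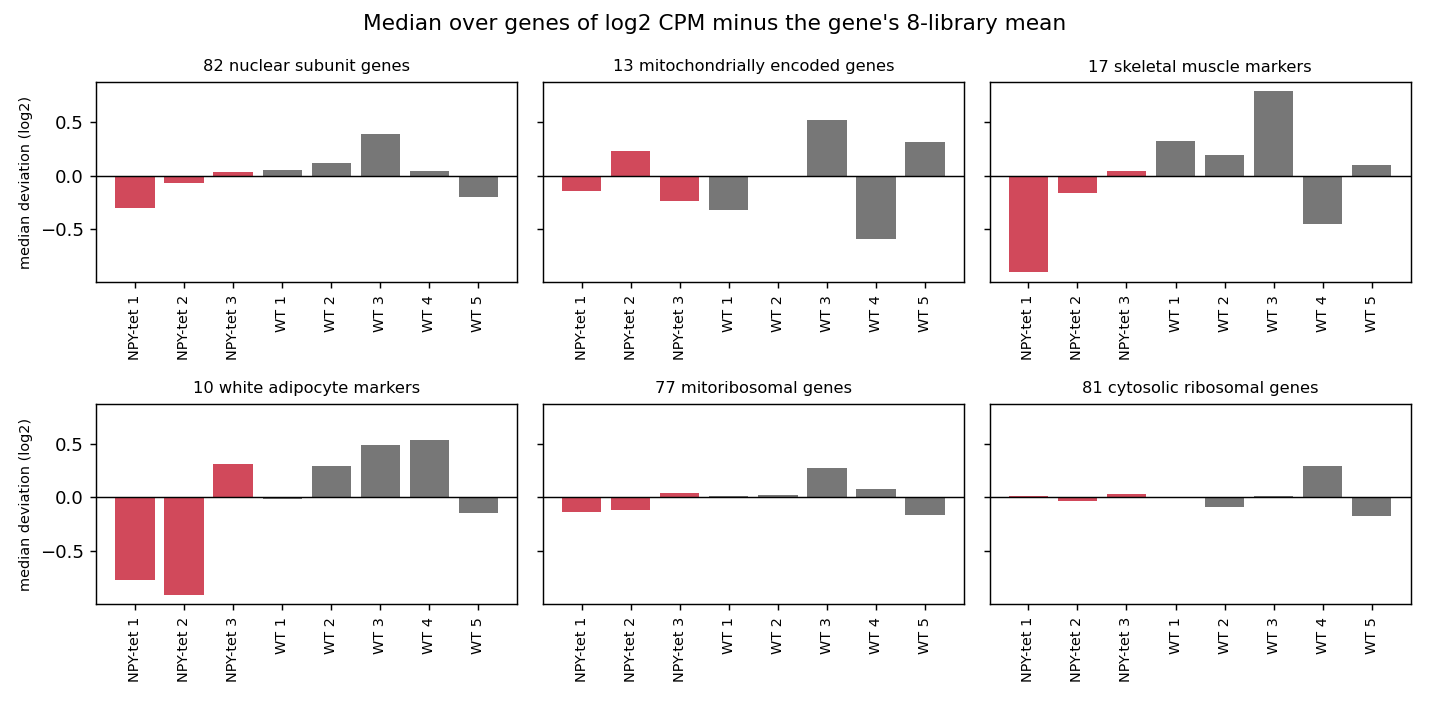
Median over the genes of a list of log2 CPM minus the gene's mean over 8 libraries (vertical axis), by library (horizontal axis), for NPY-tet (red) and WT (grey). NPY-tet replicate 1 is lowest and WT replicate 3 highest both for the 82 subunit genes (-0.31 and 0.39) and for the 17 skeletal muscle markers (-0.90 and 0.79).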

How the data were processed

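Whole skin of 3 NPY-tet and 5 WT mice was pulverized and its poly-A RNA sequenced without strand information, per the labels. The authors deposited raw counts per gene and FPKM values per gene and library. The submitters' processing notes name the build mm39 and, with no role given, DESeq2 1.20.0, featureCounts 1.5.0-p3 and HISAT2 2.0.5. Coordinates of genes are those of the deposited table (mm39), while promoters come from RefSeq on GRCm38.p6 and were matched by symbol alone.

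The deposited counts were tested with edgeR 4.0.16 (quasi-likelihood, robust, TMM, filterByExpr) and limma 3.58.1 in R 4.3.3, over all 8 libraries and with no covariate, and p-values were adjusted by Benjamini and Hochberg over all 18495 genes tested. The SE of a log2 fold change was derived from the test's F statistic (size over root F). CPM used TMM-scaled library sizes. Levels of different genes were compared by the deposited FPKM alone. The common biological coefficient of variation was 0.318. The fits were tested on simulated data in which genes varied independently and planted differences were larger than the subunit median. Small shifts shared by many genes were not simulated, so that test does not bear on them. Each library has its own mouse number in the titles and file columns, and mice were taken as replicates. For replicates 3 to 5 of WT and all NPY-tet libraries, another label gives a mouse number higher by 1, with the same genotype.

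The members, gene lists and rule for named genes were chosen with earlier results of these data known. Named genes were the 3 with the smallest p and the 1 with the highest mean FPKM in each complex, restricted isoforms with their widely expressed counterparts, genes whose groups did not overlap and genes lost to the filter. Ndufa12, Ndufb2, Sdhd, Uqcrfs1, Cox6c and the short genes low in WT replicate 5 were named after their values were seen. Alternatives were other size factors and filters, DESeq2 1.42.0, limma-voom, limma on log2(FPKM + 1) and log2(FPKM + 0.1), marker, ribosomal RNA and replicate terms, subsets of libraries, and each library left out. Leaving out NPY-tet replicate 1 with WT replicate 5, and the fit of replicates 1 to 3 with no block, were chosen after seeing the data. Single values of 1 subunit gene are not reported here; it remains in the fits, counts and medians.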

Additional observations from a re-analysis of the deposited data

Results flagged for a closer look

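In 17 subunit genes and in the mean of complex IV, 1 of the 5 WT libraries lay far from the others. The measure is the gap between that library and its nearest neighbor as a share of the WT range, with 0.71 as the bound. Chance alone passes it in about 1 in 20 groups, and the genes share their libraries. WT replicate 3 was high in Ndufb9 (0.727), Ndufa11 (0.808), Ndufa9 (0.798) and Ndufa8 (0.745) of complex I, and in Atp5l (0.734), Atp5b (0.712) and Atp5a1 (0.756) of ATP synthase. WT replicate 5 was low in Ndufa3 (0.733), Ndufs6 (0.748), Ndufa2 (0.787) and Ndufa1 (0.715) of complex I, and in Uqcr11 (0.792) and Uqcrh (0.877) of complex III. It was also low in Cox5b-ps (0.836), Atp5e (0.776) and Atp5k (0.756), and in the mean log2 CPM of the complex IV genes (0.741). WT replicate 4 was high in Cox6a1 (0.761). The 3 NPY-tet libraries are too few for this measure.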

How the results depend on the processing

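No subunit gene passed an adjusted p of 0.05 under any alternative run (smallest adjusted p 0.134, without NPY-tet replicate 3), and the median stayed below 0 in each. The count at an unadjusted p under 0.05 was 5 in edgeR, against 5.98% of all genes in either direction. It was 3 with no filter (5.96% of all genes), 9 with limma-voom (12.4%), 0 with the muscle term (3.91%) and 2 with the adipocyte term (2.46%). It was 0 without NPY-tet replicate 1 and WT replicate 5 (5.55%). With 1 library left out it ran from 0 without NPY-tet replicate 1 (3.3%) to 16 without WT replicate 5 (9.11%). The share of all genes was highest without NPY-tet replicate 3 (13.7%), where the count was 15. Over all genes the count past an adjusted p of 0.05, 1 in edgeR, was 21 with no filter, 68 with DESeq2, 3 with limma-voom, 2 with limma on either FPKM scale, 11 with the ribosomal RNA term, 332 and 227 in the rich and poor libraries, 6 without NPY-tet replicate 1 and WT replicate 5, and 1 to 8 with 1 library left out. The cause was not tested.

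Replicate numbers did not pair the mice, with correlations of 0.0398, -0.0057 and 0.211 between same-numbered libraries. A replicate block over replicates 1 to 3 gave 26 of 82 subunit genes (31.7%) at an unadjusted p under 0.05, against 10.7% of all genes, and 1 gene in all past an adjusted p. The same 6 libraries with no block gave 13 (15.9%), against 8.41% of all genes, and 2 past an adjusted p. With 1 library left out, medians ran from -0.27 to -0.11 over all subunit genes, -0.27 to -0.09 in complex I, -0.37 to -0.17 in complex II, -0.28 to -0.10 in complex III, -0.22 to -0.04 in complex IV and -0.33 to -0.14 in complex V. The complex V median was -0.47 in the rich libraries and that of complex II 0.0538 in the poor ones. The difference in mitochondrially encoded share, 0.134 points, was -0.267 in the rich libraries and ran from -0.204 to 0.341 with 1 library left out, at -0.00453 without WT replicate 4.

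Among the alternatives for single named genes, 607 kept the sign of the fold change and 18 did not. Cox7b gave -0.048 with the block, -0.0406 in those 6 libraries without it, -0.0533 in the rich libraries and -0.0315 without NPY-tet replicate 2. With the adipocyte term Ndufa4l2 gave 0.16, Cox7a2l 0.13, Cox6b1 0.0541 and Cox7a2 0.0067. Cox7a2l gave 0.11 in the rich libraries, 0.0415 without NPY-tet replicate 2, 0.0030 without WT replicate 3 and 0.0001 without WT replicate 4, and kept its sign at -0.1457 without both NPY-tet replicate 1 and WT replicate 5. In the poor libraries Sdhb gave 0.0638, Sdhc 0.0556, Uqcrc1 0.0447, Cox6a2 0.36, Atp5a1 0.0026 and Cox6b2 -0.20.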

Other observations

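Some marker lists of other skin compartments showed values that the comparisons above do not use. Hair shaft and matrix markers had a median log2 fold change of 0.73, with 11 of 11 above 0 and 0 at an unadjusted p under 0.05 (edgeR). They summed to 284, 919 and 95.4 CPM in NPY-tet replicates 1 to 3, against 57.9, 20.8, 23.5, 31.6 and 1150.1 CPM in WT replicates 1 to 5. NPY-tet replicates 1 and 2 and WT replicate 5, the highest for hair markers, had the lowest subunit gene medians (-0.31, -0.07 and -0.20). The part of this difference in the subunit values was not tested. Suprabasal keratinocyte markers had a median of -0.01, blood endothelium -0.12, proliferating cells 0.14, sebocytes 0.30, brown or beige adipocytes 0.24 and macrophages -0.42. At an unadjusted p under 0.05, against 5.98% of all genes, there were 6 of 10 macrophage markers (5 lower and 1 higher in NPY-tet) and 4 of 9 sebocyte markers (1 lower and 3 higher). Suprabasal keratinocytes, brown or beige adipocytes and blood endothelium had 1 such marker each, and proliferating cells 0. In each of these lists 0 genes passed an adjusted p of 0.05.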
